A study of Mus musculus with 2 samples.

Results

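The genes described here are 9 components of the Hedgehog pathway: the ligand *Shh*, the receptors and co-receptors *Ptch1*, *Boc*, *Cdon* and *Hhip*, the signal transducer *Smo*, and the transcription factors *Gli1*, *Gli2* and *Gli3*. The rule takes them by gene name alone, with no threshold on a measured value, and they are 9 of the 37074 gene names on the array. All probes that carry these names were read. RNA from the brain of E10.5 embryos (E, embryonic day) was read on 2 Agilent arrays of the SurePrint G3 mouse design, each with 1 wild type sample (strain label C57BL/6, Cy3 dye) and 1 *luxoid* sample (strain label luxoid, Cy5 dye). The *luxoid* (lu) mouse carries a mutant allele of *Plzf* (*Zbtb16*), a gene for a zinc finger transcription repressor, and the samples are called wt and lu/lu below. The study's methods name forebrain and midbrain as the tissue. The dyes were the same way round on both arrays, and only the strain labels separate the genotypes, so dye, strain and genotype cannot be told apart. The number of embryos behind a sample is not given in the sources used here, and both arrays lay on 1 slide.

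Hedgehog proteins are secreted signals that pattern the ventral side of the neural tube. Without ligand, Ptch1 holds Smo inactive and Gli3 is processed to a repressor. When the ligand binds, Smo is released, Gli activators form, and *Gli1*, *Ptch1* and *Hhip* are transcribed as direct targets, so their RNA is widely used as a readout of the pathway. In the embryonic brain *Shh* is made in the floor plate, the basal midbrain and hypothalamus, and the zona limitans. The comparison below asks how the RNA of the ligand differed between lu/lu and wt brain, and whether the RNA of the receptors, Gli factors and targets differed with it.

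Each probe is an oligonucleotide of 60 bases. The first 30 bases are shown for the probe of *Shh*, the member with the largest ratio, for the probe of the target *Gli1*, and for the 3 probes each of *Ptch1* and *Cdon*, which did not give the same ratio within a gene. Positions are those of the deposited probe annotation in build mm9, and no part of a sequence is marked by capitals.
Shh, chr5:28783456-28783515, from base 2531 of its transcript: ggagcctgtagtttgtacagagaaaaacaa
Gli1, chr10:126766967-126767026, from base 3573: ggggctgtatttagtctatgtatgttccag
The brightest Ptch1 probe, chr13:63638793-63638852, from base 1591: gctacgttgagttttccctgaggatagcct
The second Ptch1 probe, chr13:63612907-63612966, from base 4179: ggggtatttgaggatcctcatgtgcctttt
The third Ptch1 probe, chr13:63644484-63644827, from base 873: gccacagcccctaacaaaaattcaaccaaa
The brightest Cdon probe, chr9:35315141-35315200, from base 7117: tgtgtgaagttgtacatactctaagtgatg
The second Cdon probe, chr9:35259761-35260303, from base 100: agacttggcaccttattttatttctgagcc
The third Cdon probe, chr9:35264195-35264254, from base 828: ggagaaggctgtactctcatctggccacag
The third *Ptch1* probe and the second *Cdon* probe span 344 and 543 bases of the genome and therefore cross a splice junction. The other probes match an unbroken run of the genome. The brightest *Ptch1* probe was designed on a separate transcript model from the other two. No gene models of build mm9 were used here, so coding and untranslated parts were not assigned.

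The unit below is the processed signal, which is the brightness of a spot once the authors had subtracted its background and balanced the dyes. The log2 ratio is that of lu/lu to wt on 1 array, so a positive value means a higher signal in lu/lu. For each gene the brightest probe was used. A gene passed the signal filter when all 4 channels had a processed signal above 200 and a signal-to-noise ratio of 5 or more, which left 10600 genes. Of the 9 members, *Shh*, *Smo*, *Gli1*, *Gli3*, *Boc* and *Cdon* passed (6 genes). *Ptch1*, *Gli2* and *Hhip* did not, because 1 or more of their channels fell at or below 200. The brightest probe of each of the 9 members was well above background in all 4 channels by the scanner software, and no member probe was saturated. A call was a ratio above 1.3, or below its inverse of 0.769, on each of the 2 arrays. An exact sign-flip test over 2 arrays cannot give a p below 0.5, so p-values are from limma, which shares the variance across all genes tested, and are adjusted by the Benjamini-Hochberg method.

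The mutated gene was measured first. The brightest *Zbtb16* probe (chr9:48462419-48462478, mm9) gave a processed signal of 433 in wt and 172 in lu/lu on array 1, and of 546 and 211 on array 2. The lu/lu signal was below both wt signals, with log2 ratios of -1.33 and -1.37. Whether the probe covers the mutated base was not analysed here, so it describes the labels and does not read the allele.

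*Shh* was higher in lu/lu on both arrays, read by a single probe, so no second probe could be compared. Its processed signal was 536 in wt and 1120 in lu/lu on array 1, and 677 in wt and 1385 in lu/lu on array 2. Both lu/lu signals lay above both wt signals. The ratio was 2.09 on array 1 and 2.05 on array 2, a mean log2 ratio of 1.05 ± 0.022 (SD, n = 2), with a 95% limma interval of 0.86 to 1.23. The limma adjusted p was 0.0469 over 10600 genes, of which 3 (0.0283%) had an adjusted p under 0.05. Among the genes that passed the filter, *Shh* had the sixth largest mean log2 ratio (rank 6 from the highest). The adjusted p lies close to the threshold and moved to the other side of it under 8 alternatives, up to 0.506 with no filter. Other filters, averaged probes, treat and unpaired channels left the log2 ratio of *Shh* unchanged, so its sign was fixed there. With normexp background correction and loess the ratio was recomputed, at 1.01. *Shh* is also on the gene list that the study drew from these samples, so its ratio here is not independent evidence of that list.

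*Shh* was thus the only member called by the 1.3-fold rule, 1 of the 6 that passed the filter, and higher in lu/lu. Of all 10600 genes that passed, 274 (2.58%) were called higher and 78 (0.736%) were called lower. No member was called lower. Over the 23283 genes that were well above background in every channel, 586 (2.52%) were called higher and 481 (2.07%) lower. All 9 members were among these, and again *Shh* was called higher and no member was called lower. With so few members, a count of 1 describes *Shh* and says nothing of the set.

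**Figure D1:**
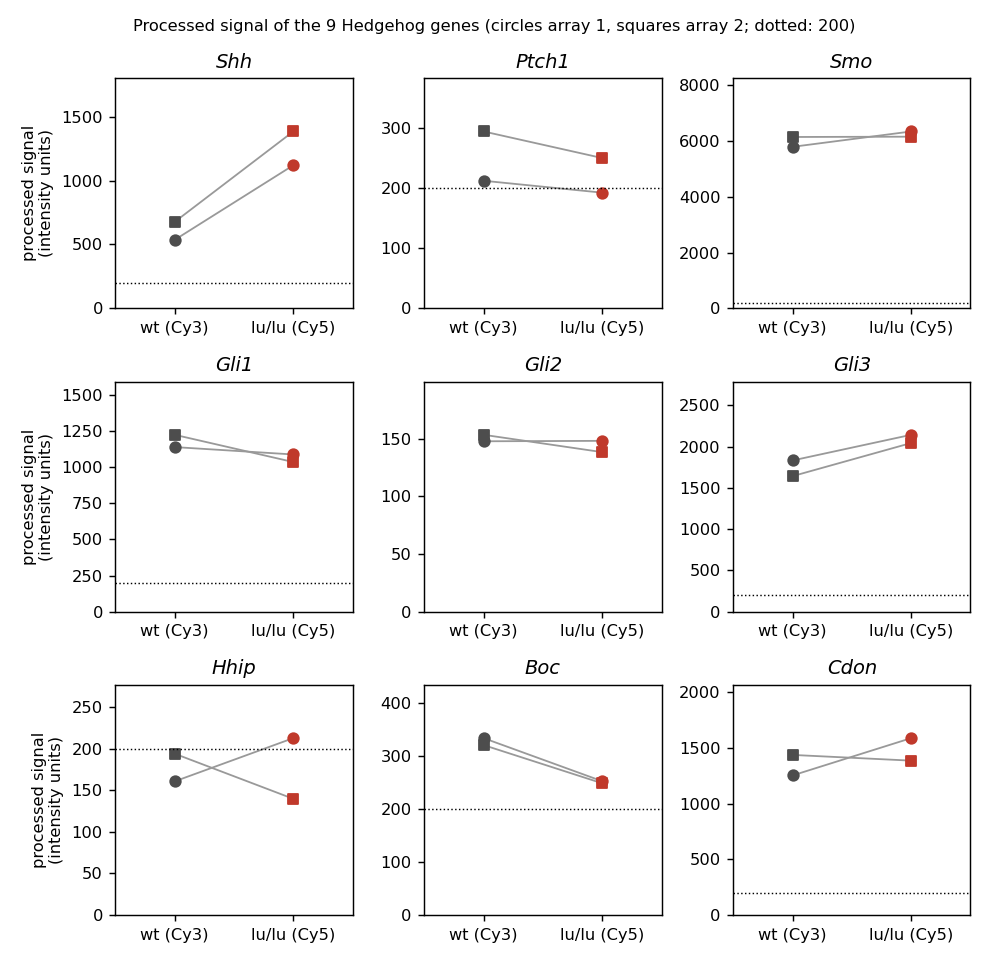
Processed signal (intensity units, linear axes from 0) of the brightest probe of each of the 9 genes in wt (Cy3, grey) and lu/lu (Cy5, red), with circles for array 1, squares for array 2, a line joining the 2 channels of an array and a dotted line at 200. *Shh* rises from 536 to 1120 and from 677 to 1385, and *Boc* is lower in lu/lu on both arrays without passing the 1.3-fold rule on array 2. The lines of *Hhip* and *Cdon* rise on array 1 and fall on array 2.

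Among the members, the direct targets *Gli1*, *Ptch1* and *Hhip* did not pass the 1.3-fold rule. *Foxa2*, from the list of genes induced by Hedgehog, was called higher and is given below. *Gli1*, a Gli activator whose own transcription depends on Hedgehog signaling, gave a processed signal of 1140 in wt and 1089 in lu/lu on array 1, and of 1225 and 1036 on array 2. Both lu/lu signals were below both wt signals, by less than the 1.3-fold threshold. Its mean log2 ratio was -0.15 ± 0.12 (SD, n = 2, limma adjusted p = 0.279), with a 95% interval of -0.36 to 0.05. The upper end of that interval corresponds to a ratio of 1.04, while the lower end of the interval of *Shh* corresponds to a ratio of 1.82. A second *Gli1* probe was near background, at a signal of 8.90 or less in every channel, and was not used.

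*Ptch1* encodes the receptor that binds Shh and is itself induced by the pathway. The brightest probe gave 213 in wt and 193 in lu/lu on array 1, and 295 and 250 on array 2. On each array the lu/lu signal was the lower, but the wt signal of array 1 lay between the lu/lu signals. The mean log2 ratio was -0.19 ± 0.066 (SD, n = 2), with an adjusted p of 0.367 in the limma fit over genes well above background and an interval of -0.44 to 0.07. The second probe, with signals of 52.9 and 63.4 on array 1 and of 55.7 and 65.2 on array 2 in wt and lu/lu, had log2 ratios of 0.26 and 0.23. The third probe had log2 ratios of 0.23 and -0.05. The 3 probes of *Ptch1* therefore differed in direction, and none was beyond 1.3-fold on either array.

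*Hhip*, a membrane protein that binds and sequesters Hedgehog ligands, is another direct target. Its brighter probe gave 161 in wt and 213 in lu/lu on array 1, and 194 in wt and 140 in lu/lu on array 2. The log2 ratios of 0.40 and -0.47 were of opposite sign. The second probe showed the same reversal, with log2 ratios of 0.22 and -0.26. The mean of the brighter probe was -0.03 ± 0.62 (SD, n = 2), and its interval of -0.71 to 0.64 leaves a difference of 1.5-fold in either direction within the error.

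The difference between the ligand and its targets was taken within each array. The log2 ratio of *Shh* exceeded that of *Ptch1* by 1.21 on array 1 and 1.27 on array 2. It exceeded that of *Gli1* by 1.13 and 1.27, and that of *Hhip* by 0.66 and 1.51. Against the mean of the 3 targets, which was 0.07 on array 1 and -0.32 on array 2, the excess of *Shh* was 1.00 and 1.35, a mean of 1.17 ± 0.25 (SD, n = 2). The direction was the same on both arrays. The exact sign-flip test cannot pass the threshold with 2 arrays, and these differences were not tested otherwise. These are differences of ratios, not of levels, since signals of separate probes were not compared.

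**Figure D2:**
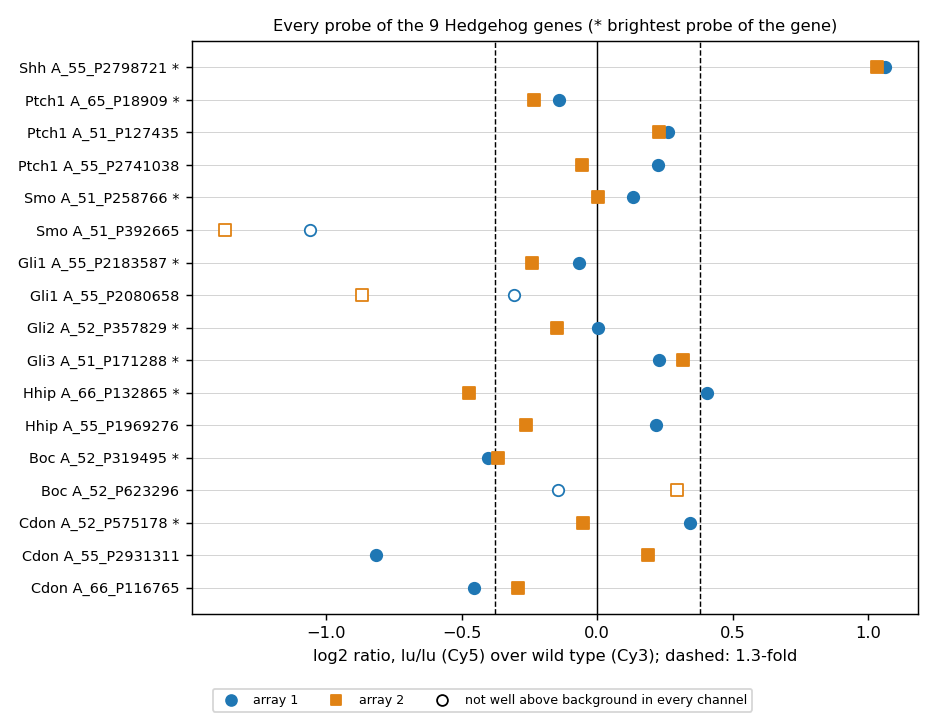
Log2 ratio of lu/lu (Cy5) to wt (Cy3) of each of the 17 probes of the 9 genes on array 1 (circles) and array 2 (squares), with open symbols for probes not well above background in every channel, stars for the brightest probe of each gene, and dashed lines at 1.3-fold in either direction. The probe of *Shh* lies at 1.06 and 1.03, and no other filled probe lies beyond the dashed lines on the same side on both arrays.

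Among the co-receptors, *Boc* came nearest to a call. Boc is a membrane protein that binds Shh and presents it to Ptch1. Its processed signal was 334 in wt and 253 in lu/lu on array 1, and 321 in wt and 249 in lu/lu on array 2. Both lu/lu signals were below both wt signals. The ratio was 0.756 on array 1, past the threshold of 0.769, and 0.775 on array 2, short of it. The mean log2 ratio was -0.39 ± 0.025 (SD, n = 2, limma adjusted p = 0.0634), with an interval of -0.57 to -0.20. *Boc* ranked 230 from the lowest of the 10600 genes. The call depends on the setting, since *Boc* passed the fold rule with background-subtracted signals centred without LOWESS, and with the 2 arrays averaged. Its adjusted p was 0.0356 with those signals and 0.0426 after the trend on the GC content of the probes was removed. The second *Boc* probe was near background, at a signal of 13.6 or less, and was not used.

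*Cdon*, a co-receptor related to Boc, gave a processed signal of 1253 in wt and 1589 in lu/lu on array 1, and of 1438 and 1386 on array 2. The groups overlapped and the log2 ratios of 0.34 and -0.05 were of opposite sign. Its limma adjusted p was 0.429 and its interval -0.13 to 0.42. The other probes of *Cdon* differed from this one. The second probe gave 248 in wt and 140 in lu/lu on array 1 but 78.8 and 89.7 on array 2, log2 ratios of -0.82 and 0.19. The third probe, at signals of 23.3 to 31.9, had log2 ratios of -0.45 and -0.29. No direction is given for *Cdon*. *Cdon* and *Zbtb16* both lie on chromosome 9, and their brightest probes are 13.1 Mb apart in mm9.

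*Smo*, the transducer that Ptch1 restrains, gave a processed signal of 5792 in wt and 6343 in lu/lu on array 1, and of 6145 and 6156 on array 2. The array 2 channels were nearly the same, with a log2 ratio of 0.0026 against 0.13 on array 1. The mean log2 ratio was 0.07 ± 0.091 (SD, n = 2, limma adjusted p = 0.603). Its interval of -0.13 to 0.26 bounds a difference at a ratio of 1.20. A second *Smo* probe was not well above background in any channel and has no usable ratio.

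The 2 other Gli factors, which carry out most of the pathway's activation and repression, also stayed within the 1.3-fold threshold. *Gli3*, the main Gli repressor of the dorsal forebrain, gave 1833 in wt and 2144 in lu/lu on array 1, and 1643 in wt and 2044 in lu/lu on array 2. Both lu/lu signals were above both wt signals, and the log2 ratio averaged 0.27 ± 0.063 (SD, n = 2). The interval of 0.08 to 0.46 did not include 0, but the adjusted p over all genes was 0.104. *Gli2*, the main Gli activator, gave 148 in both channels of array 1, and 153 in wt and 138 in lu/lu on array 2. Its channels overlapped, and the mean log2 ratio was -0.07 ± 0.11 (SD, n = 2, adjusted p = 0.706 in the limma fit over genes well above background). For both genes a single probe was on the array.

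**Figure D3:**
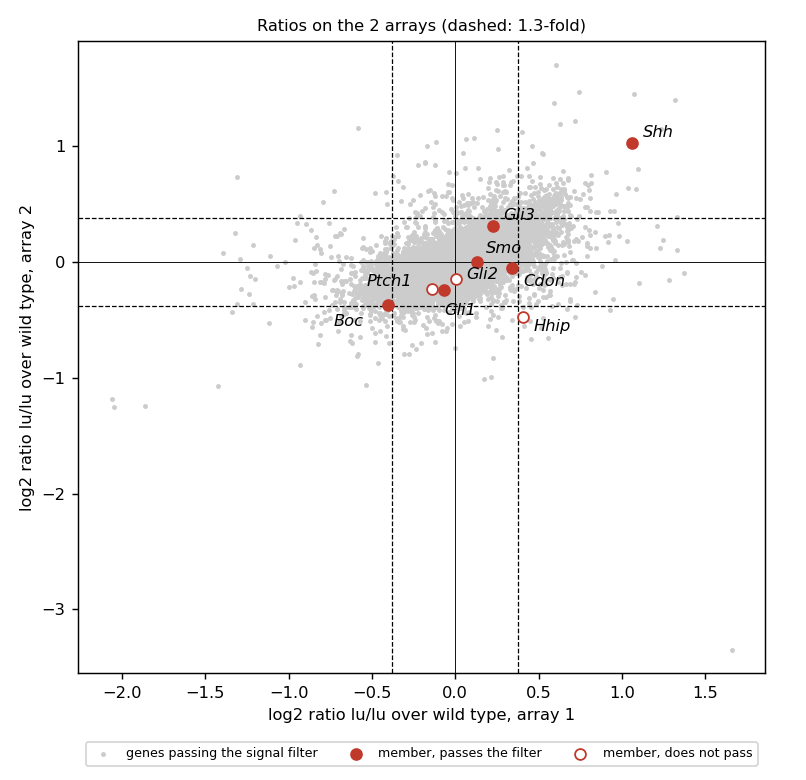
Log2 ratio of lu/lu to wt on array 1 (x axis) and array 2 (y axis) for the 10600 genes that passed the signal filter (grey) and the 9 Hedgehog genes (red, open where the gene did not pass), with dashed lines at 1.3-fold. *Shh* lies at 1.06 and 1.03, apart from the other 8 genes, which lie within or at the edge of the grey cloud, and *Hhip* lies in the quadrant of opposite signs.

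The wider pathway was read from lists fixed by gene function, 86 genes that are not members, all of them on the array. Of these, 57 passed the signal filter, 2 were called higher in lu/lu and 1 lower, and none had a limma adjusted p under 0.05, with 15 (26.3%) at an unadjusted p under 0.05. Over all 10600 genes the share at that unadjusted p was 27.8% (2942 genes), so the count of 15 is near the background. By the fold rule, 2.58% of all 10600 genes were called higher and 0.736% lower. These shares stand beside each signal-filter count of the lists and markers below. The 57 genes had a median log2 ratio of 0.10, beside 0.01 over all 10600 genes. The called genes were *Lrp2*, *Foxa2* and *Pax3*, all 3 of which are on the gene list that the study drew from these samples and so are not independent of it.

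*Lrp2*, an endocytic receptor that binds Shh in the ventral forebrain, gave a processed signal of 450 in wt and 953 in lu/lu on array 1, and of 511 and 790 on array 2. Both lu/lu signals were above both wt signals, with log2 ratios of 1.08 and 0.63 (limma adjusted p = 0.0510). *Gas1*, a co-receptor anchored in the membrane by a lipid, had log2 ratios of 0.33 and -0.09 (limma adjusted p = 0.529). Of these 2 further co-receptors, *Lrp2* was thus the 1 that was called.

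Neither of the other ligands passed the filter, and *Ihh* and *Dhh* had signals of 32.4 or less in every channel. Of the 6 genes for lipidation, release and transport of the ligand, 4 passed and none was called. Of the 25 genes of intracellular transduction, 20 passed and none was called, with a median log2 ratio of 0.03. *Sufu*, the inhibitor that holds Gli proteins in the cytoplasm, had log2 ratios of 0.18 and 0.21 (limma adjusted p = 0.167). *Kif7*, a kinesin of the cilium tip that regulates Gli proteins, did not pass, with signals of 83.5 to 92.2 and log2 ratios of 0.12 and 0.13. Of the 13 cilium genes, 10 passed and none was called, with a median log2 ratio of 0.05.

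The list of genes induced by Hedgehog counted here holds 20 genes that are not members. Of these, 11 passed, 1 was called higher and none lower, and the median log2 ratio was 0.11. The called gene was *Foxa2*, a forkhead factor of the floor plate, at 288 in wt and 473 in lu/lu on array 1, and 394 and 916 on array 2. Its log2 ratios were 0.72 and 1.22 (limma adjusted p = 0.0510). Over the 20 genes, all well above background, 4 were called higher and 1 lower without the signal filter. Beside *Foxa2*, those higher were *Nkx2-1* (log2 ratios 1.27 and 0.47), *Olig2* (0.72 and 0.61) and *Osr2* (0.57 and 0.70). The signals of *Osr2* were 37.1 or less. *Nkx2-9* was the gene called lower (-1.03 and -0.49). Of these genes only *Foxa2* passed the signal filter. Of all 23283 genes well above background, 2.52% were called higher and 2.07% lower. The list of genes lowered by Hedgehog holds 10 genes that are not members, 8 of which passed. *Pax3*, a dorsal neural tube factor, was called lower, at 497 in wt and 377 in lu/lu on array 1, and 583 and 360 on array 2 (log2 ratios -0.40 and -0.70, adjusted p = 0.0574). The other 7 were not called, and the median of the 8 was 0.15.

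Markers of the floor plate and ventral midline, the tissue that makes *Shh*, were read for comparison. Of 12 markers, 4 passed the filter, and *Foxa2* was called higher. These 4 genes had a median log2 ratio of 0.22 (array 1 alone 0.11, array 2 alone 0.50). Over the 11 markers well above background the median was 0.47, and 2 were called higher, *Foxa2* and *Nkx2-1*. The share called higher over all genes well above background was 2.52%. The summed signal of the 12 markers was 2416 and 2227 in wt on arrays 1 and 2, and 2853 and 3499 in lu/lu. In RNA from whole tissue, more cells that make *Shh* and more *Shh* RNA per cell cannot be told apart.

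**Figure D4:**
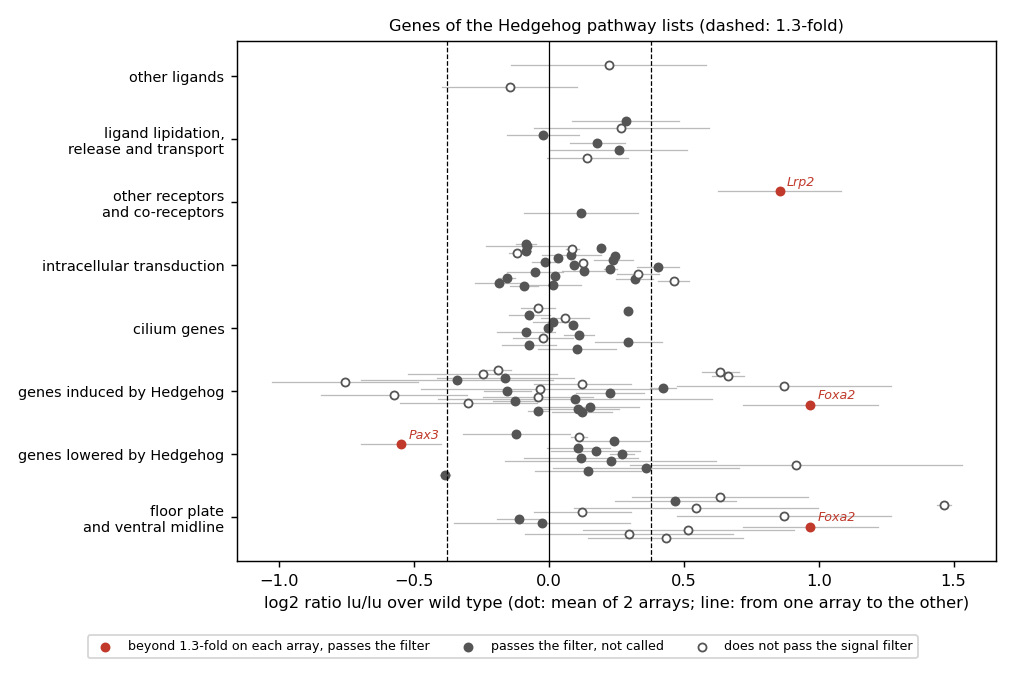
Log2 ratio of lu/lu to wt of each counted gene of the 8 Hedgehog pathway lists, shown as the mean of 2 arrays (dot) with a line from the value on one array to that on the other, and dashed lines at 1.3-fold. The called genes are red, with *Lrp2* and *Foxa2* to the right and *Pax3* to the left, *Foxa2* is drawn in both lists that hold it, and open dots did not pass the signal filter.

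Some markers of brain regions also differed between the channels. Of 6 forebrain markers, 5 passed, and *Otx2* and *Six3* were called higher in lu/lu. The summed signal of the 6 was 5657 to 6615 in wt and 7739 to 8023 in lu/lu, while *Emx2*, *Lhx2* and *Rax* had log2 ratios of opposite sign on the 2 arrays. Of 7 midbrain and isthmus markers, 4 passed and *En2* was called lower, and their summed signal was 3446 to 3657 in wt and 2048 to 2343 in lu/lu. Without *En2* the other 6 summed to 1529 in wt and 1521 in lu/lu on array 1, and to 1347 and 1369 on array 2, so the difference of the sum is that of *En2*. Single markers among the 6 still differed. *Fgf8* was higher on both arrays (log2 ratios 0.40 and 0.19) and *Wnt1* lower (-0.60 and -0.21), neither of them called. The 6 hindbrain markers summed to 156 to 181 in wt and 84.1 to 91.0 in lu/lu, and none passed. Of the notochord markers other than *Shh* and *Foxa2*, *T* was between 7.58 and 9.41 and *Noto* between 1.59 and 3.53 in the 4 channels, not well above background in every channel. *Krt18*, which surface ectoderm also expresses, was between 4696 and 7581, with log2 ratios of 0.69 and -0.34. The part of these regional differences in the ratio of *Shh* was not tested. Among other cell types, 2 of 6 markers of neurons were called higher over genes well above background (*Elavl4* and *Neurod1*), with sums of 5305 in wt and 5728 in lu/lu on array 1 and of 4797 and 7721 on array 2. *Tubb3* was higher on both arrays without a call, while *Dcx*, *Elavl3* and *Stmn2* had log2 ratios of opposite sign on the 2 arrays. Of 6 endothelial markers, 3 were called lower over genes well above background (*Kdr*, *Tek* and *Tie1*). None of the 3 passed the signal filter, and the signals were 43.1 or less for *Tek* and 27.5 or less for *Tie1*. The 6 summed to 4202 in wt and 3678 in lu/lu on array 1 and to 4711 and 3436 on array 2. Most of each sum was *Egfl7*, which was not called (3687 and 3297 on array 1, 4141 and 3109 on array 2). Over all genes well above background, 2.52% were called higher and 2.07% lower. Markers of surface ectoderm and of primitive erythrocytes had summed signals that ran in opposite directions on the 2 arrays. The ectoderm markers summed to 8311 in wt and 12588 in lu/lu on array 1 and to 11922 and 9205 on array 2, and the ratios of *Hhip* and *Cdon* also changed sign between the arrays. The part of these cell types in the ratios of the Hedgehog genes was not tested.

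The passing genes with the pattern most like *Shh* were taken by the distance between their 2 log2 ratios and those of *Shh* over the 2 arrays. They were *Nrcam* (log2 ratios 1.23 and 1.15, distance 0.21), a cell adhesion molecule of axons, and *Etv1* (1.09 and 0.80, distance 0.23), an ETS transcription factor. *Irs4*, an insulin receptor substrate, followed at a distance of 0.30, then *Tox3*, a high mobility group protein, at 0.38 and *Pdgfa*, a growth factor, at 0.39. *Foxa2* and *Lrp2* of the pathway lists came next, at distances of 0.392 and 0.405. The likeness rests on 2 values per gene. *Nrcam*, *Etv1*, *Irs4*, *Pdgfa*, *Foxa2* and *Lrp2* are on the list that the study drew from these samples.

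The promoters of the members were searched for the Gli binding motif GACCACCCA on both strands. RefSeq windows from 250 bases before to 50 after the start (GRCm38.p6) were at hand for 6 of the 9 members, *Ptch1*, *Smo*, *Gli2*, *Gli3*, *Hhip* and *Cdon*. None of the 6 held the motif, exactly or with 1 mismatch. Of all 32851 windows of that length, 0.253% held it exactly and 6.74% with at most 1 mismatch. A window of 300 bases does not cover more distant sites.

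The ratios were also compared across processing settings. One alternative (normexp correction of the background, then centring on the median over all probes) gave a median log2 ratio of 0.59 over all genes, against 0.01 in the main setting, so the members are given there relative to that median. On that scale the mean log2 ratio of *Shh* lay between 0.96 and 1.07 over 10 settings that keep both arrays. *Gli1* lay between -0.24 and -0.13, *Boc* between -0.45 and -0.31, *Gli3* between 0.22 and 0.33, *Smo* between 0.01 and 0.15, and *Cdon* between 0.06 and 0.17. In the settings that change only the filter or the use of probes, the ratios of these members are the same and only the subtracted median moves. Without subtraction of the median, *Gli1* and *Boc* were positive under the median-centred setting.

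**Figure D5:**
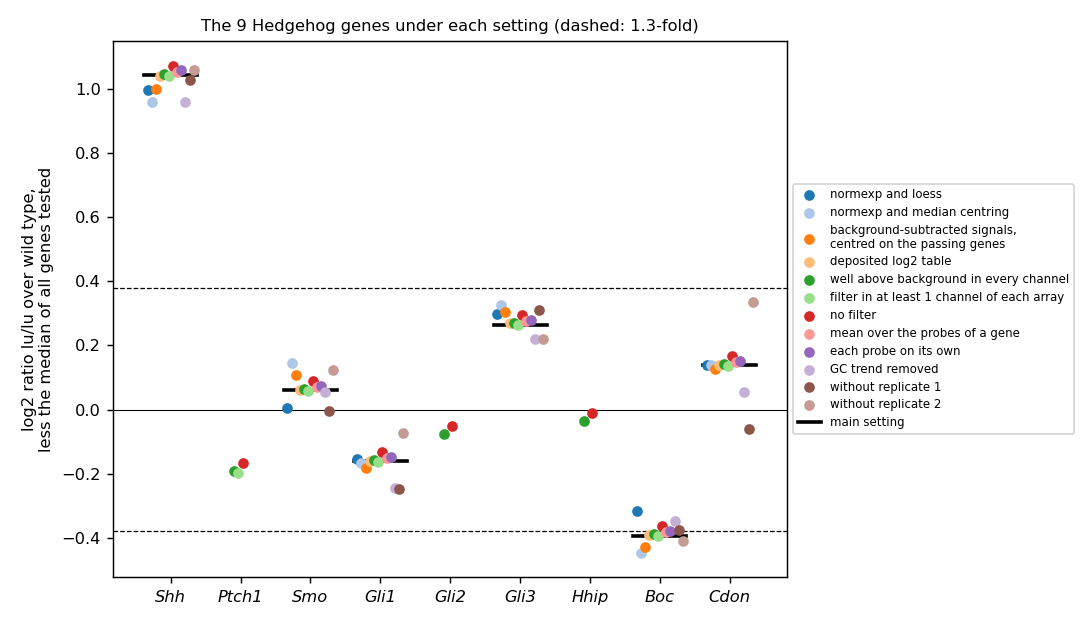
Mean log2 ratio of lu/lu to wt of each Hedgehog gene, less the median of all genes tested, in the main setting (black bar, where the gene passed) and under each alternative (dots), with dashed lines at 1.3-fold. *Shh* stays near 1 in each setting, *Boc* lies close to the lower dashed line, and *Cdon* changes sign without replicate 1.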

How the data were processed

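RNA of wt and lu/lu brain at E10.5 was hybridised to 2 arrays. Per the labels wt carried Cy3 and lu/lu Cy5 on both arrays, and replicate numbers were taken from the sample titles. The titles number the replicates and do not state their kind. The study's list of changed genes describes its N1 and N2 columns as independent groups, and their *Shh* ratios are those found here. The authors scanned the arrays and used Feature Extraction 10.7.3.1, which subtracted background, replaced dim spots by surrogates and normalized the dyes by LOWESS within an array. The deposited files give the intensity of each spot per channel before and after these steps, with the Cy5 over Cy3 ratio as log10. The same ratio is deposited on the log2 scale too and differs by 0.005 at most. Positions of probes (mm9) come from the annotation in the files.

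Control spots (ControlType other than gene) and outlier spots (137 and 126 on the 2 arrays) were left out, log2 values of repeated spots were averaged per probe, and the brightest probe stood for a gene. Each array held 59305 gene spots, of which 36936 to 44318 per channel were well above background. The signal-to-noise ratio was the difference of mean spot and median background signal, over the SD of background pixels. Log2 ratios were fitted with limma 3.58.1 (lmFit with an intercept, eBayes, Benjamini-Hochberg) in R 4.3.3 with the data.table package (version 1.17.8). The pairing of channels by array is part of the design, as the ratio is taken within an array. The 2 arrays limit the precision of every value. The procedure was tested on simulated data. Sequences and figures used Python 3.11.15, numpy 2.4.6, pandas 2.3.3 and matplotlib 3.10.9. RefSeq promoter windows are of GRCm38.p6 and were not joined to mm9 positions.

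The members and the gene lists were chosen with earlier results of these data known. Named genes are the 9 members with every probe, the genes of the pathway lists called by the 1.3-fold rule (at most 6 a list), *Gas1*, *Lrp2*, *Sufu* and *Kif7*, the mutated gene, and the 5 passing genes nearest to *Shh*. Some list genes are not reported here and were left out of the list counts, sums and medians. Marker genes of brain regions and cell types are named outside that rule, after their values were seen. The same holds for the induced genes called only without the signal filter. Alternatives were normexp (offset 50) with loess or median centring, background-subtracted signals, the deposited log2 table, 3 other filters, averaged probes, single probes, removal of the GC trend (lowess, span 0.67), eBayes with trend, treat, unpaired channels, 1.5-fold as the threshold, the fold rule on the average of both arrays, and single arrays.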

Additional observations from a re-analysis of the deposited data

How the results depend on the processing

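The limits are the 2 arrays, the single dye orientation and the signals near 200 of *Ptch1*, *Gli2* and *Hhip*. The *Shh* ratio kept its direction and the 1.3-fold call in every setting that recomputed it. Its limma adjusted p of 0.0469 rose to 0.0574 with normexp and loess, 0.198 with the deposited log2 table, 0.252 over genes well above background, 0.0665 with the filter in at least 1 channel, 0.506 with no filter, 0.0579 with probes averaged and 0.269 with treat against 1.3-fold. With the channels unpaired and no replicate block it was 0.0532. The limma adjusted p of *Shh* fell to 0.0204 with background-subtracted signals, 0.0315 with single probes and 0.0133 with the GC trend removed. With eBayes with trend it was 0.0205. Under normexp with median centring it was 9.02e-24, where the ratios of all genes were shifted upward. In the deposited log2 table the log2 ratios of *Shh* were 1.06 and 1.03, the same as in the main setting after rounding. Without 1 replicate, the log2 ratio of *Shh* ranged from 1.03 to 1.06, and its excess over the mean of *Ptch1*, *Gli1* and *Hhip* from 1.00 to 1.35.

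Under normexp with median centring the median log2 ratio of all genes was 0.59. Without subtraction of that median, the log2 ratio was 0.14 for *Boc* and 0.42 for *Gli1*, both reversed, and 0.73 for *Cdon*, 0.91 for *Gli3* and 0.73 for *Smo*. There 4 members and 39 genes of the pathway lists were higher beyond 1.3-fold, and none of the list genes lower. *Boc* was -0.30 with normexp and loess, -0.43 with background-subtracted signals and -0.35 with the GC trend removed. It was the 1 member called lower with background-subtracted signals, with the mean of the arrays, and without replicate 2 (-0.40, against -0.37 without replicate 1). Without 1 replicate, *Cdon* ranged from -0.053 to 0.34, *Gli1* from -0.24 to -0.066, *Gli3* from 0.23 to 0.32 and *Smo* from 0.0026 to 0.13, members called lower from 0 to 1, list genes called higher from 6 to 8 and list genes called lower from 1 to 4.

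Of the list genes, 6 were higher and 2 lower over genes well above background, 7 and 2 with no filter, 4 higher with the filter in at least 1 channel and 5 higher with the mean of the arrays, against 2 and 1 in the main setting. The count of list genes lower was 0 with normexp and loess and at 1.5-fold on each array. The causes were not tested. The number of genes called higher among all genes ranged from 41 at 1.5-fold to 7338 under median centring.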
